A study of Mus musculus with 6 samples.

Results

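The Ifi200 family is a cluster of interferon-inducible genes on mouse chromosome 1 whose proteins carry a pyrin domain, a DNA-binding HIN domain, or both. The members were the 10 rows of the deposited table named Ifi203, Ifi204, Ifi205, Ifi206, Ifi208, Ifi209, Ifi211, Ifi213, Ifi214 and Mndal, out of 55450 genes. They were measured in regulatory T (Treg) cells, a CD4 lineage that depends on the factor Foxp3 and holds other immune cells in check. The cells were sorted from tumours that the colon carcinoma line MC38 formed in C57BL/6 mice. One group of 3 libraries came from mice whose Treg cells were deficient in Tim-3, an inhibitory receptor encoded by Havcr2. A second group of 3 came from mice whose Treg cells were Tim-3 sufficient. The column names mark the deficient libraries KO, for Tim-3 knockout, and the sufficient ones WT. The labels give no allele, Cre driver, sex or age for either group, and they leave unsaid whether each library of a group had its own mouse. The p-values below are therefore set by variation among these 6 libraries, part of which may be technical.

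Members of this family are induced by type I and type II interferon. Pyrin domains bind other pyrin domains, as in inflammasomes, while HIN domains bind double-stranded DNA. The best known relative, Aim2, lies beside the cluster and senses DNA in the cytosol. Ifi204 is a mouse DNA sensor that acts through STING, and the family is abundant in myeloid cells as well as in lymphocytes. The genes arose by duplication, so their sequences are alike.

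The files gave values as log2(TPM + 1), where TPM is an abundance per transcript length scaled to the same total in every library, so levels of different genes can be compared. Libraries are called deficient C1, deficient D and deficient dated, and sufficient A1, sufficient B1 and sufficient dated, after marks in the column names. The dated library of each group is the one whose name carried a calendar date, and the other 4 are called undated. Libraries held 11470 to 12681 genes at 1 TPM or more, and the number of reads behind them is unknown because TPM keeps no depth. Havcr2 had 3.54, 4.27 and 2.55 in deficient C1, D and dated on the log2(TPM + 1) scale, against 5.70, 5.64 and 4.49 in sufficient A1, B1 and dated, so every deficient library was below every sufficient one, with a log2 fold change of -1.83 and a limma adjusted p of 0.211. The 7 Treg and T cell markers, among them Foxp3, were detected in all 6 libraries, at between 4.82 and 11.96. Summed, they gave 4421, 5668 and 5389 TPM in deficient C1, D and dated, against 7186, 7107 and 4922 TPM in sufficient A1, B1 and dated, and limma called 0 of the 7, with 0 at an unadjusted p under 0.05. The deficient dated library had 0.01 or less of the 4 Y-linked genes tested and 2.01 of Xist, which was at 0.03 or less in the other 5 libraries. Macrophage and monocyte markers summed to 1329, 19.3 and 20.9 TPM in deficient C1, D and dated, and to 129.6, 932.2 and 27.8 TPM in sufficient A1, B1 and dated.

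Of the 10 members, 1 rose in Tim-3 deficient Treg cells: Ifi208, 10.8-fold on the log2(TPM + 1) scale. The other 9 did not pass the test, with log2 fold changes between -0.41 and 0.63. Those 9 included the close paralogs of Ifi208 with nearly the same promoter sequence, Ifi213 and Ifi206. The test was limma over the 12155 genes with at least 1 TPM in at least 3 of the 6 libraries, called at a Benjamini-Hochberg adjusted p under 0.05, and all 10 members were among those genes. Over all tested genes 25 were called in either direction, or 0.206%, 0.132% were called higher and 0.074% lower. The median log2 fold change of the 10 members was 0.38, against 0.09 over all tested genes, and 8 members had positive values, as did 60.1% of all tested genes, while 2 were negative, against 39.9%.

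Ifi208 (ENSMUSG00000066677.12, GRCm38 chr1:173673675-173698395, plus strand) is also named Pydc3 in RefSeq, after the pyrin domain. It had 28.9, 28.5 and 26.4 TPM in deficient C1, D and dated, against 1.35, 1.79 and 1.90 TPM in sufficient A1, B1 and dated. The 3 deficient libraries lay close together and far above the 3 sufficient ones, with no overlap. Groups failed to overlap in this direction at 10.9% of tested genes and in the other at 6.73%. Ifi208 was the only 1 of the 10 members without overlap in either direction, and the only 1 with a log2 fold change of at least 1, which 3.3% of tested genes had. On the log2(TPM + 1) scale Ifi208 averaged 4.85 ± 0.07 in deficient and 1.42 ± 0.16 in sufficient libraries (SD, n = 3 each). Its log2 fold change was 3.44 (95% confidence interval 2.90 to 3.98), with a limma adjusted p of 0.00561. Because 1 is added before the logarithm, this understates the ratio of mean TPM, which was 16.6. Among the 12155 genes Ifi208 ranked first by p and second by the size of a positive fold change.

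The difference was of like size by date mark, at 3.54 among the 4 undated libraries and 3.24 between the 2 dated ones. The dated pair also differed in Y-linked genes, for example Eif2s3y at 0 in deficient dated and 6.57 in sufficient dated on the log2(TPM + 1) scale. Between those 2 libraries, Tim-3 status and sex cannot be told apart. In a fit that took the date mark as a block, which called 1.97% of tested genes and 1.12% as higher, the adjusted p of Ifi208 was 0.003. With any 1 library left out, the log2 fold change of Ifi208 stayed between 3.35 and 3.50. Its limma adjusted p was then 0.0602 without deficient D and 0.0585 without sufficient B1, and limma called 0 of the 12155 genes in either of those fits, with 944 and 978 genes at an unadjusted p under 0.05. Without the deficient dated library the value was 3.48 with an adjusted p of 0.00554. Deficient C1, with 1329 TPM of macrophage and monocyte markers, and deficient D, with 19.3 TPM, differed by 0.02 in Ifi208 on the log2 scale. Of the B cell markers, 3 of 3 tested had positive fold changes, and the list summed to 582.1, 674.1 and 792.6 TPM in deficient libraries, against 384.0, 338.5 and 613.7 TPM in sufficient ones. Igkc, an immunoglobulin light chain gene, had 7.43, 7.44 and 7.62 in deficient C1, D and dated on the log2(TPM + 1) scale, against 5.55, 5.23 and 7.24 in sufficient A1, B1 and dated. Its groups did not overlap, and its log2 fold change was 1.49 (limma adjusted p = 0.263), against 0.84 for Cd79b and 0.43 for Ighm, whose groups overlapped. The B cell markers Ms4a1 and Pax5 were at 0.01 or less in all 6 libraries. Dendritic and antigen-presentation markers had positive values in 4 of 5 tested members and summed to 2206, 682.0 and 1105 TPM in deficient libraries, against 416.7, 973.1 and 247.2 TPM in sufficient ones. The antigen-presentation genes H2-Ab1, H2-Aa and Cd74 had log2 fold changes of 1.58, 1.55 and 1.28 with overlap between the groups (limma adjusted p 0.499, 0.6 and 0.251). Among dendritic lineage markers Zbtb46 stood at 2.99, 2.97 and 1.51 in deficient C1, D and dated on the log2(TPM + 1) scale, against 2.17, 2.97 and 2.24 in sufficient A1, B1 and dated. Xcr1 stood at 0.25, 1.09 and 0.77 in deficient libraries, against 1.34, 1.39 and 0.86 in sufficient ones. Flt3, Clec9a, Siglech and Cd209a were listed at 0 in all 3 deficient libraries. In sufficient A1, B1 and dated, Flt3 stood at 0.46, 0.86 and 0.04. Clec9a, Siglech and Cd209a stood at 0.19, 0.25 and 1.27 in sufficient A1, and at 0.01 or less in sufficient B1 and dated. Ccr9 stood at 0, 0.18 and 0.32 in deficient C1, D and dated, against 0.73, 0.23 and 0.29 in sufficient A1, B1 and dated. The part of these macrophage and monocyte, B cell and dendritic signals in the Ifi208 difference was not tested. In bulk samples, more cells of a type and more RNA per cell cannot be told apart.

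**Figure D1:**
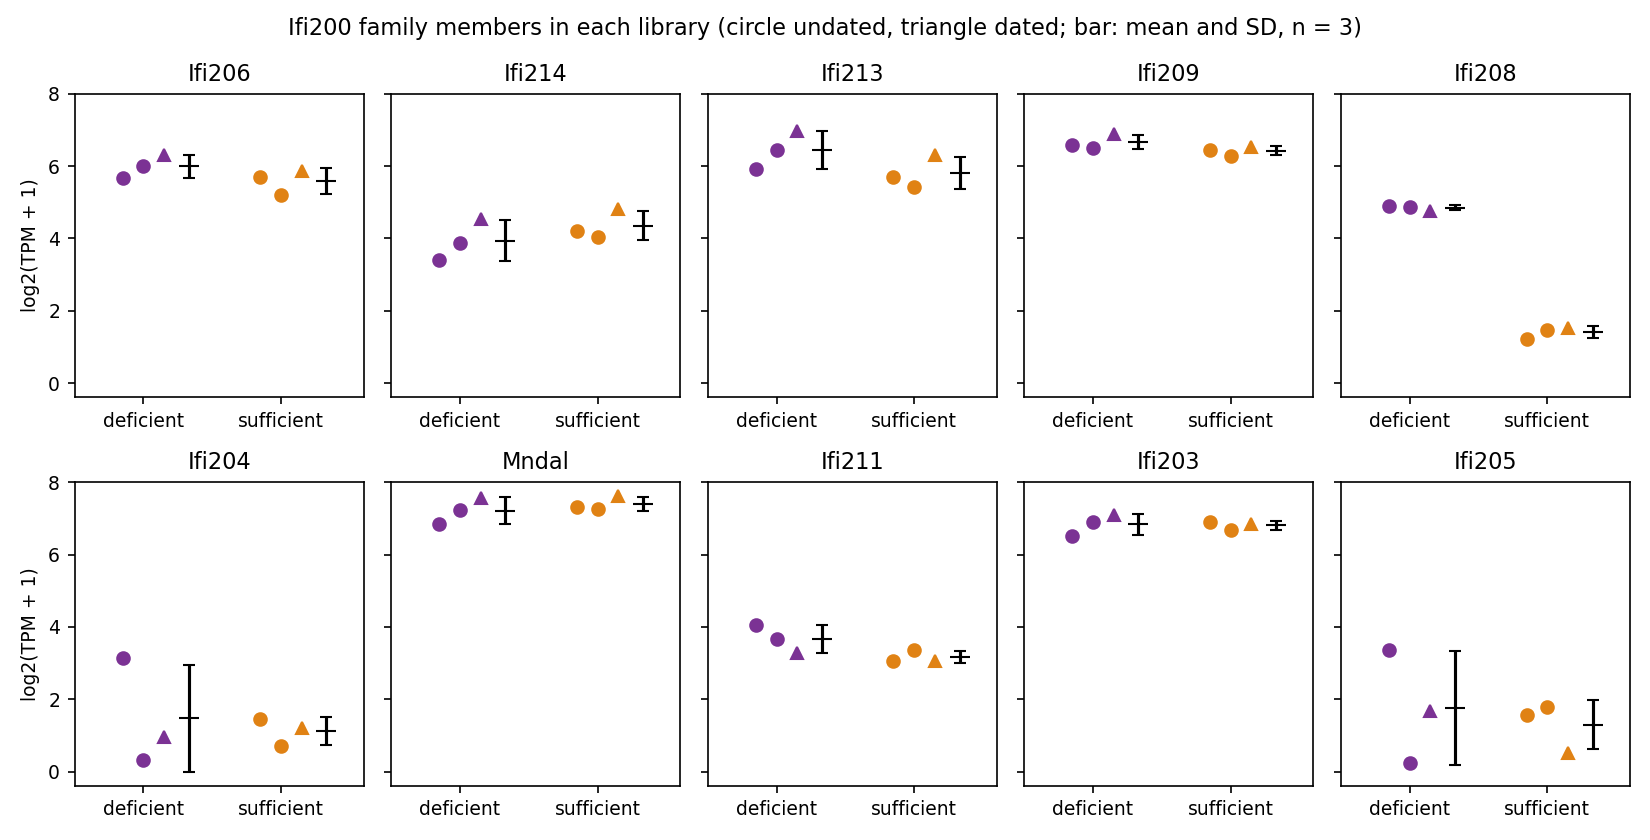
Values of the 10 members in log2(TPM + 1), 1 point per library, in their order along the chromosome; circles are undated and triangles dated libraries, and the black bar is the group mean with its SD (n = 3). Ifi208 stands at 4.85 in deficient and 1.42 in sufficient libraries on average, while the groups of the other 9 members overlap.

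The sequences before the start sites of Ifi208, Ifi213, Ifi206, Ifi209 and Ifi214 are shown. Those of Ifi208, Ifi213 and Ifi206 are nearly the same, although only Ifi208 passed the test. Those of Ifi209 and Ifi214 are like each other and differ more from that of Ifi208. Each run is the 150 bases before the RefSeq start site, 5′ to 3′ on the gene's strand (GRCm38.p6). Capitals mark a match to the core of the interferon-stimulated response element, GAAANNGAAA on either strand, to which the factors activated by type I interferon bind.
Ifi208, chr1:173673515-173673664, plus strand: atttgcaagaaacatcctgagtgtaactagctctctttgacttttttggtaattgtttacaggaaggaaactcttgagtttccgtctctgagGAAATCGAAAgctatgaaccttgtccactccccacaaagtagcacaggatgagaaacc
Ifi213, chr1:173599273-173599422, minus strand: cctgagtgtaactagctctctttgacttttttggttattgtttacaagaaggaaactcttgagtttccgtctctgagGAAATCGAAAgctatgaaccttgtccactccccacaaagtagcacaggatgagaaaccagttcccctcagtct
Ifi206, chr1:173491319-173491468, minus strand: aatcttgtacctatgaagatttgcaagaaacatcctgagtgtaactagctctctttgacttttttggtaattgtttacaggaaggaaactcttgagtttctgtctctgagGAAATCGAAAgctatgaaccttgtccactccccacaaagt
Ifi209, chr1:173630709-173630858, plus strand: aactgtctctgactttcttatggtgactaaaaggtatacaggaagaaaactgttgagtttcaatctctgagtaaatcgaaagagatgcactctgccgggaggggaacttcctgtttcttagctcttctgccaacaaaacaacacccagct
Ifi214, chr1:173535958-173536107, minus strand: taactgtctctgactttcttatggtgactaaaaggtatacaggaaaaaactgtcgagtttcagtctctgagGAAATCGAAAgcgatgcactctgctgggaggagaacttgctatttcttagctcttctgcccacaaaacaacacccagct

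The promoter table holds windows that run from 250 bases before to 50 after each start. In these, Ifi206 and Ifi208 were identical at 279 of 281 aligned bases (99.3%), Ifi213 and Ifi208 at 282 of 285 (98.9%), and Ifi206 and Ifi213 at 263 of 266 (98.9%). Ifi214 and Ifi209 formed a second pair, identical at 287 of 299 aligned bases (96.0%). Ifi208 and Ifi209, which neighbour each other and are transcribed in the same direction, were identical at 179 of 256 aligned bases (69.9%). The match GAAATCGAAA began 58 bases before the start of Ifi208, 73 before that of Ifi213, 40 before that of Ifi206 and 79 before that of Ifi214, and the Ifi209 window held no match. The 9 members with a window had 11 windows, of which 9 held at least 1 match, against 3.44% of all 32851 windows of this length. These 11 windows are not independent, because the genes arose by duplication and windows of the same gene overlap. The windows of Mndal had 71 bases in common and those of Ifi203 had 120. The gamma-activated site TTCNNNGAA, which reads the same on both strands and was found in 8.30% of all windows, was in none of the 11 (0 of 9 members). A match is a stretch of letters, not a measured binding site.

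The 2 genes with the promoters most like that of Ifi208 had positive fold changes that did not pass. Ifi213, named Pydc4 in RefSeq (ENSMUSG00000073491.11, chr1:173566283-173599274, minus strand), had 59.7, 85.3 and 123.7 TPM in deficient C1, D and dated, against 51.2, 41.5 and 78.0 TPM in sufficient A1, B1 and dated. Sufficient dated lay above deficient C1, so the groups overlapped, and in each group the dated library was the highest. The log2 fold change was 0.63 (95% confidence interval -0.09 to 1.36, limma adjusted p = 0.475). It was 0.62 without the dated libraries and 0.66 between them, and the fit blocked by date mark gave an adjusted p of 0.108. Ifi206 (ENSMUSG00000037849.8, chr1:173468485-173491041, minus strand) had 49.6, 63.0 and 78.2 TPM in deficient libraries, against 51.0, 35.4 and 57.2 TPM in sufficient ones, in the same library order. Its groups overlapped too, and its log2 fold change was 0.41 (interval -0.15 to 0.97, limma adjusted p = 0.548). The upper ends of both intervals, 1.36 and 0.97, lay below the lower end of the interval of Ifi208, 2.90.

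Ifi209 and Ifi214 make up the other pair with like promoters, and their values went in opposite directions without passing. Ifi209 is Pyhin1 in RefSeq (ENSMUSG00000043263.13, chr1:173630917-173647928, plus strand). It had 95.1, 90.1 and 115.7 TPM in deficient C1, D and dated, against 85.7, 76.7 and 91.3 TPM in sufficient A1, B1 and dated. Deficient D was below sufficient dated, which is the 1 overlap between the groups, and the log2 fold change was 0.24 (interval -0.13 to 0.61, limma adjusted p = 0.59). Ifi214 (ENSMUSG00000070501.14, chr1:173519717-173535957, minus strand) had 9.68, 13.7 and 22.2 TPM in deficient libraries, against 17.5, 15.6 and 26.9 TPM in sufficient ones. The groups overlapped, and its log2 fold change of -0.41 (interval -1.19 to 0.37, limma adjusted p = 0.666) was the lowest of the 10 members.

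Mndal and Ifi203 were the members with the highest TPM in sufficient libraries and showed no detectable change. Mndal (ENSMUSG00000090272.8, chr1:173849126-173942491, minus strand) encodes a nuclear protein. It had 114.3, 148.1 and 188.6 TPM in deficient C1, D and dated, against 156.7, 152.4 and 196.0 TPM in sufficient A1, B1 and dated. Its log2 fold change was -0.18 (interval -0.66 to 0.30, limma adjusted p = 0.773), and the groups overlapped. Ifi203 (ENSMUSG00000039997.16, chr1:173920407-173942672, minus strand) had 90.1, 117.9 and 135.2 TPM in deficient libraries, against 119.3, 100.7 and 114.2 TPM in sufficient ones. Its log2 fold change was 0.02 (interval -0.40 to 0.45, limma adjusted p = 0.979), the smallest of the family, and it turned to -0.10 after quantile normalization. The intervals of Ifi203 and Mndal leave room for changes of up to 1.36-fold and 1.23-fold upward, and down to 0.756-fold and 0.631-fold. In both groups the dated library held the highest value of Mndal, Ifi206, Ifi209, Ifi213 and Ifi214.

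Ifi204, Ifi205 and Ifi211 were all highest in deficient C1, and none of them passed the test. Ifi204, the DNA sensor p204 (ENSMUSG00000073489.6, chr1:173747293-173766943, minus strand), had 7.84, 0.26 and 0.94 TPM in deficient C1, D and dated, against 1.74, 0.65 and 1.33 TPM in sufficient A1, B1 and dated. Deficient C1 stood alone, and the other 2 deficient libraries lay within or below the sufficient range. Ifi205, known in mouse macrophages as p205 (ENSMUSG00000054203.7, chr1:174011998-174031810, minus strand), had 9.27, 0.18 and 2.22 TPM in deficient libraries, against 1.99, 2.48 and 0.44 TPM in sufficient ones. Here too deficient C1 was highest and deficient D lowest. Ifi211, listed in RefSeq with the other name Mnda (ENSMUSG00000026536.9, chr1:173896345-173913046, minus strand), had 15.6, 11.7 and 8.67 TPM in deficient libraries, against 7.36, 9.30 and 7.39 TPM in sufficient ones. Sufficient B1 was above deficient dated, so its groups overlapped as well.

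The log2 fold changes were 0.35 for Ifi204 (interval -1.21 to 1.90), 0.46 for Ifi205 (-1.25 to 2.17) and 0.50 for Ifi211 (-0.14 to 1.13), with limma adjusted p of 0.876, 0.849 and 0.524. Without deficient C1 the values of Ifi204 and Ifi205 turned to -0.49 and -0.34, and that of Ifi211 was 0.30. Deficient C1 was also the library with the highest macrophage and monocyte signal, for example 9.08 of Lyz2 and 6.23 of C1qa on the log2(TPM + 1) scale, against 1.99 and 0 in deficient D. In the whole marker list, 12 of 12 genes were above 0 in deficient C1. Sufficient B1, with 8.94 of Lyz2, held the highest Ifi205 and Ifi211 but the lowest Ifi204 of the sufficient libraries. The part of macrophage RNA in these values was not tested. Without deficient C1 and sufficient B1 the log2 fold change was -0.69 for Ifi204, -0.09 for Ifi205 and 0.40 for Ifi211, against 3.44 for Ifi208, and in that smaller fit limma called 0 genes (adjusted p of Ifi208 0.229), with 748 at an unadjusted p under 0.05.

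**Figure D2:**
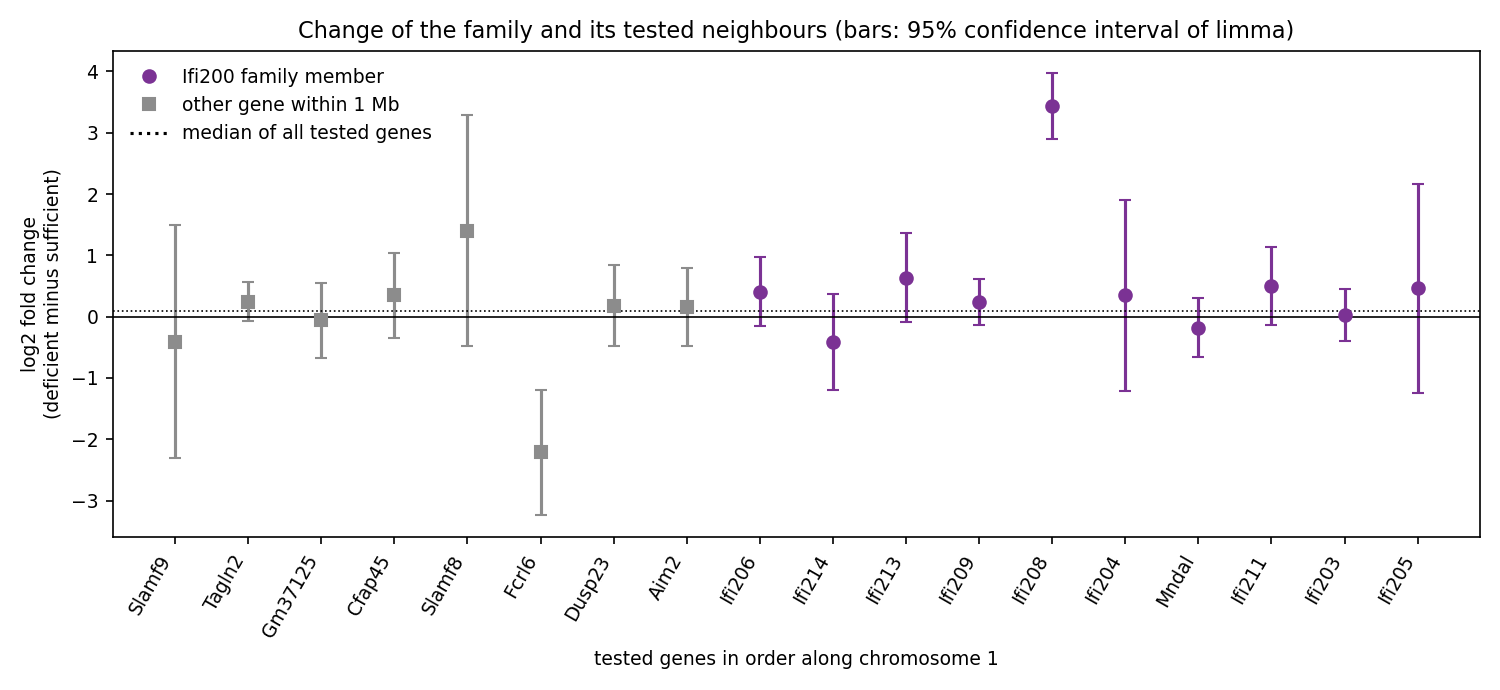
Deficient minus sufficient log2 fold change of the 18 tested genes within 1 Mb of the cluster in their order along chromosome 1, with 95% confidence intervals from limma; purple circles are members, grey squares other genes, and the dotted line is the median of all tested genes. Ifi208 has the highest fold change, 3.44, and its interval begins at 2.90, above the upper end of every other member's interval. That comparison of intervals is among members only. Slamf8, which is not a member, had 1.40 ± 0.82 (SE).

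The order of the members by level changed at 1 place that the spread allows to be told. In sufficient libraries Ifi208 was 8th to 10th of the 10 members by TPM, and its range overlapped that of Ifi205, its neighbour in the order by group mean. In each of the 3 deficient libraries it was 6th, below Ifi206 by 1.14 ± 0.39 and above Ifi214 by 0.91 ± 0.63 on the log2(TPM + 1) scale (SD, n = 3), and neither pair of ranges overlapped. The top of the order was Mndal, Ifi203, Ifi209, Ifi213 and Ifi206 by group mean in both groups. In deficient libraries the ranges of each neighbouring pair among those 5 overlapped. In sufficient libraries Mndal and Ifi203, and Ifi203 and Ifi209, did not overlap, while Ifi209 and Ifi213, and Ifi213 and Ifi206, did.

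On the TPM scale the 10 members summed to 480.1, 558.6 and 701.7 TPM in deficient C1, D and dated, against 493.8, 436.5 and 574.7 TPM in sufficient A1, B1 and dated. The groups overlapped, with means of 580.2 ± 112.4 TPM in deficient and 501.7 ± 69.4 TPM in sufficient libraries (SD, n = 3 each). Ifi208 made up 6.02%, 5.10% and 3.76% of that sum in deficient libraries, against 0.273%, 0.410% and 0.331% in sufficient ones. The share of Mndal was 23.8%, 26.5% and 26.9% in deficient libraries, against 31.7%, 34.9% and 34.1% in sufficient ones.

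**Figure D3:**
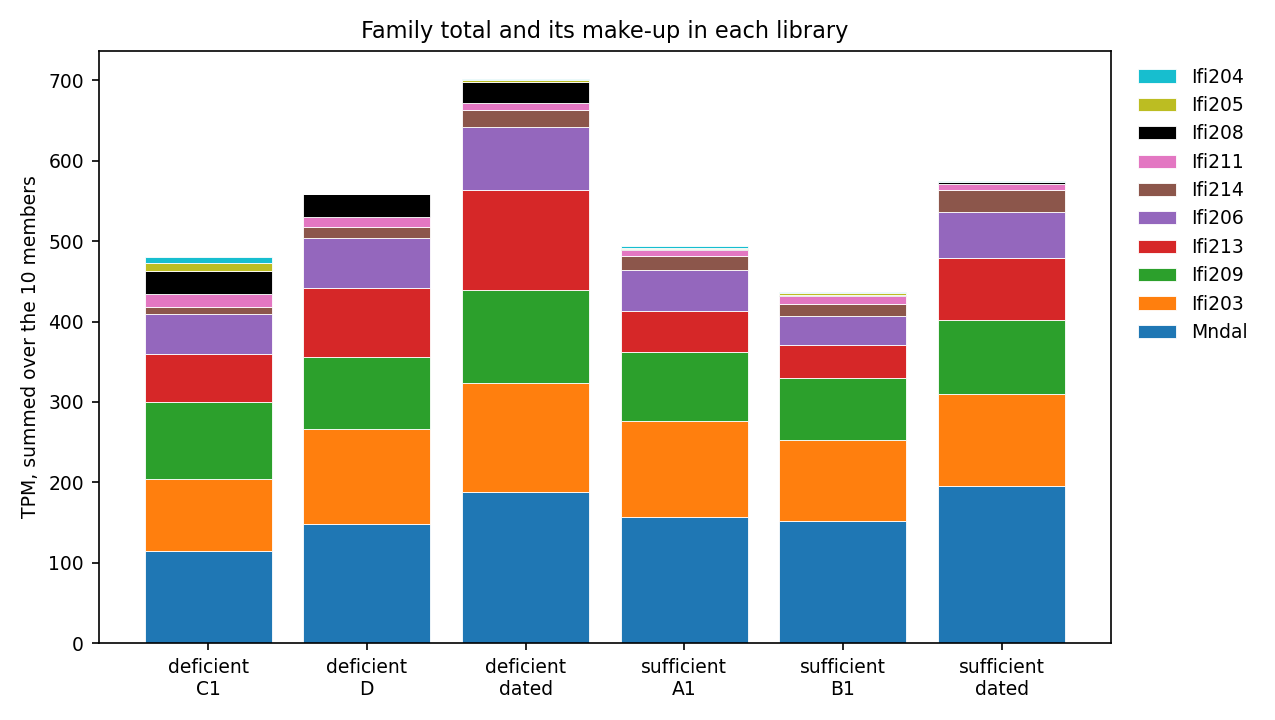
TPM summed over the 10 members in each library, stacked by member, with deficient libraries on the left. Ifi208, in black, fills 3.76% to 6.02% of the deficient bars and 0.41% or less of the sufficient bars, while the totals of the groups overlap.

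Reads from near-identical paralogs can be divided among them when abundance is estimated, so exact sequence sharing was measured. Of all windows of 75 bases, the read length, in the transcripts of Ifi208, 88.2% occurred in no transcript of another gene. It shared 9.04% of its windows with Ifi213 and 4.40% with Ifi206, and none with another member. Ifi213 and Ifi206 together had 109.3, 148.2 and 201.9 TPM in deficient C1, D and dated, against 102.2, 76.9 and 135.2 TPM in sufficient A1, B1 and dated. The groups overlapped in this sum. With Ifi208 added the sum was 138.2, 176.7 and 228.3 TPM in deficient libraries, against 103.5, 78.7 and 137.1 TPM in sufficient ones. The groups did not overlap in this larger sum, but only just, with deficient C1 at 138.2 TPM and sufficient dated at 137.1 TPM. The part of divided reads in the Ifi208 difference was not tested. Ifi211 was the least distinct member, with 36.4% of its windows found in no other gene, 40.6% shared with Ifi205 and 23.0% with Ifi204. Ifi209 shared 23.1% of its windows with Ifi214. The other members had 82.4% to 94.3% of windows to themselves. The annotated gene of Mndal also spans Ifi211 and reaches into Ifi203, with 37 exon bases in common with Ifi203 and 0 with Ifi211, all on the minus strand. By this measure the values of Ifi211, then Ifi209, Ifi206 and Ifi205 are the least certain.

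**Figure D4:**
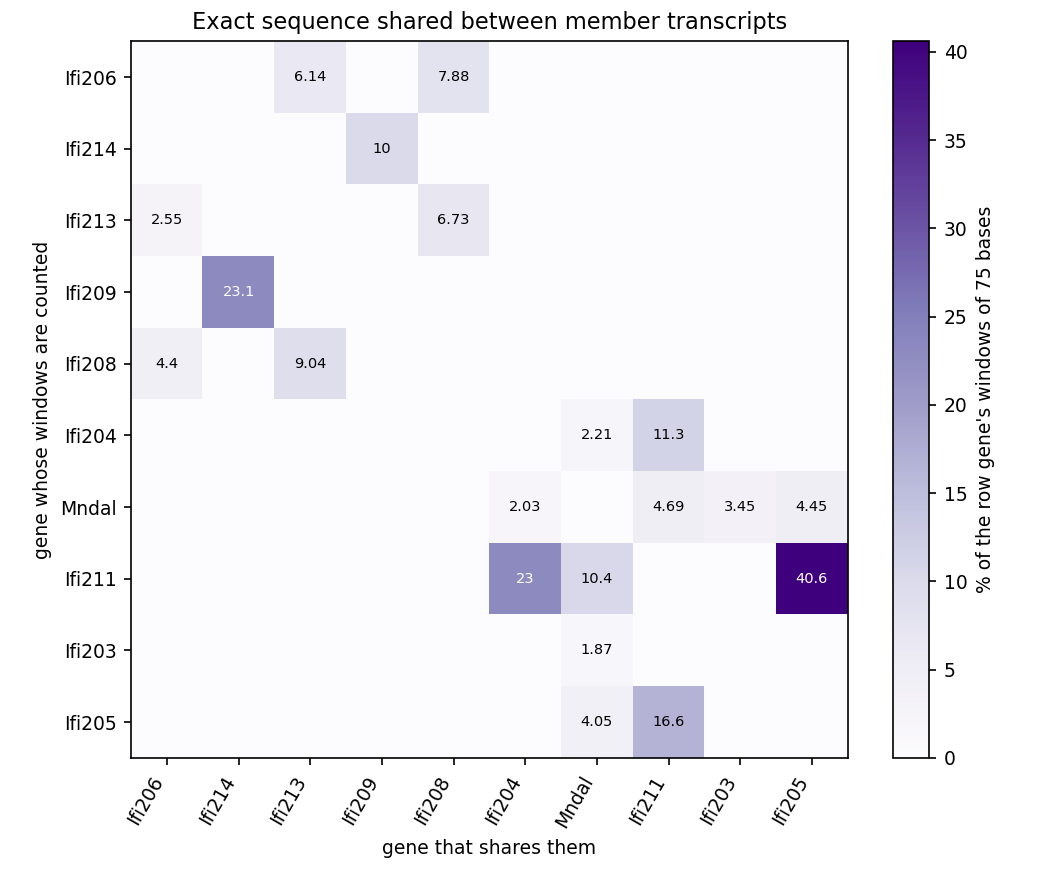
Share of the 75-base windows of each member's transcripts (rows, in chromosome order) that also occur in transcripts of another member (columns), in percent. Ifi208 shares 9.04% with Ifi213 and 4.40% with Ifi206, while Ifi211 shares 40.6% with Ifi205.

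The cluster spans 563 kb, from Ifi206 to Ifi205. Within 1 Mb on either side the annotation places 68 other genes, of which 26 are olfactory receptor genes or pseudogenes, and 47 of the 68 are listed at 0 in all 6 libraries. Of the 8 that were tested, limma called 0, and 1 had an unadjusted p under 0.05, against 11.7% of all tested genes. That gene, Fcrl6, a receptor-like gene of the Fc receptor-like family, had 0.39, 1.68 and 0.69 in deficient C1, D and dated on the log2(TPM + 1) scale, against 2.75, 2.85 and 3.81 in sufficient A1, B1 and dated. Its log2 fold change was -2.22, with a limma adjusted p of 0.11. In the fit blocked by date mark, which called 1.97% of tested genes, Fcrl6 passed as lower in deficient libraries (limma adjusted p = 0.0487). Aim2, the DNA sensor next to Ifi206, had 20.2, 19.2 and 28.4 TPM in deficient libraries, against 24.4, 23.2 and 13.8 TPM in sufficient ones, and its log2 fold change was 0.16 (interval -0.48 to 0.80, limma adjusted p = 0.857). Aim2 differed by -0.26 on the log2 scale when the dated libraries were set aside and by 0.99 between those 2.

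The other values were a log2 fold change of 1.40 for Slamf8, -0.41 for Slamf9, 0.35 for Cfap45, 0.24 for Tagln2, 0.18 for Dusp23 and -0.06 for Gm37125. Slamf8 stood at 4.02 in deficient C1, against 1.54 or less in the other 5 libraries. Among genes below the filter, Gm18752 was chosen after its values were seen. It is a transcribed pseudogene on the plus strand that begins downstream of Ifi208 at chr1:173701385-173706407. It was listed at 0 in deficient C1 and at 1.59 and 1.84 in deficient D and dated on the log2(TPM + 1) scale, against 0 in each of the 3 sufficient libraries. Ifi207, a PYHIN gene that is not among the 10, had 1.75, 0.76 and 0 in deficient libraries, against 0.32, 0.15 and 0 in sufficient ones. Ifi202b was listed at 0 in all 6 libraries, and Ifi203-ps stood at 0.12 or less.

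No gene of the upstream pathway passed the test. Of 19 tested genes of interferon receptors and signalling, limma called 0, and at an unadjusted p under 0.05 there were 3 higher and 1 lower, a count of 4 of 19, against 11.7% of all tested genes. Their median log2 fold change was 0.14, against 0.09 over all tested genes. The 4 of smallest p were Irf8, a myeloid and lymphoid factor, at -1.35 ± 0.31 (SE), Irf7, the master factor of interferon induction, at 0.67 ± 0.16, Ifngr1, a receptor chain for interferon gamma, at 0.58 ± 0.15, and Socs1, a feedback inhibitor, at 0.73 ± 0.26. Their limma adjusted p were 0.152, 0.159, 0.194 and 0.325. Over all 19 genes, 3 were higher and 1 lower without overlap between the groups, against 10.9% and 6.73% of all tested genes. Those were the same 4 genes, which had been picked by p. Of the 19, Irf8 alone passed in the fit blocked by date mark (adjusted p = 0.00963).

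Of 42 tested genes stimulated by type I interferon outside the family, limma called 0, and at an unadjusted p under 0.05 there were 1 higher and 2 lower, against 11.7% of all tested genes. Positive values were found for 25 and negative for 17, with a median log2 fold change of 0.07. Split by date mark, the median was -0.02 for undated and 0.30 for dated libraries. The 4 of smallest p were Isg20, an exonuclease, at -1.23 ± 0.22 (SE), Samhd1, which degrades nucleotides, at 0.55 ± 0.15, Mx1, an antiviral GTPase, at -0.96 ± 0.31, and Slfn8 at -0.54 ± 0.23. Their limma adjusted p were 0.0929, 0.218, 0.274 and 0.432. In the fit blocked by date mark Isg20 passed, at an adjusted p of 0.0259. It had 7.66, 7.79 and 8.5 in deficient C1, D and dated on the log2(TPM + 1) scale, against 9.20, 9.30 and 9.15 in sufficient A1, B1 and dated, the opposite direction to Ifi208. Across the list the log2 fold changes ran between -1.23 and 1.11.

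**Figure D5:**
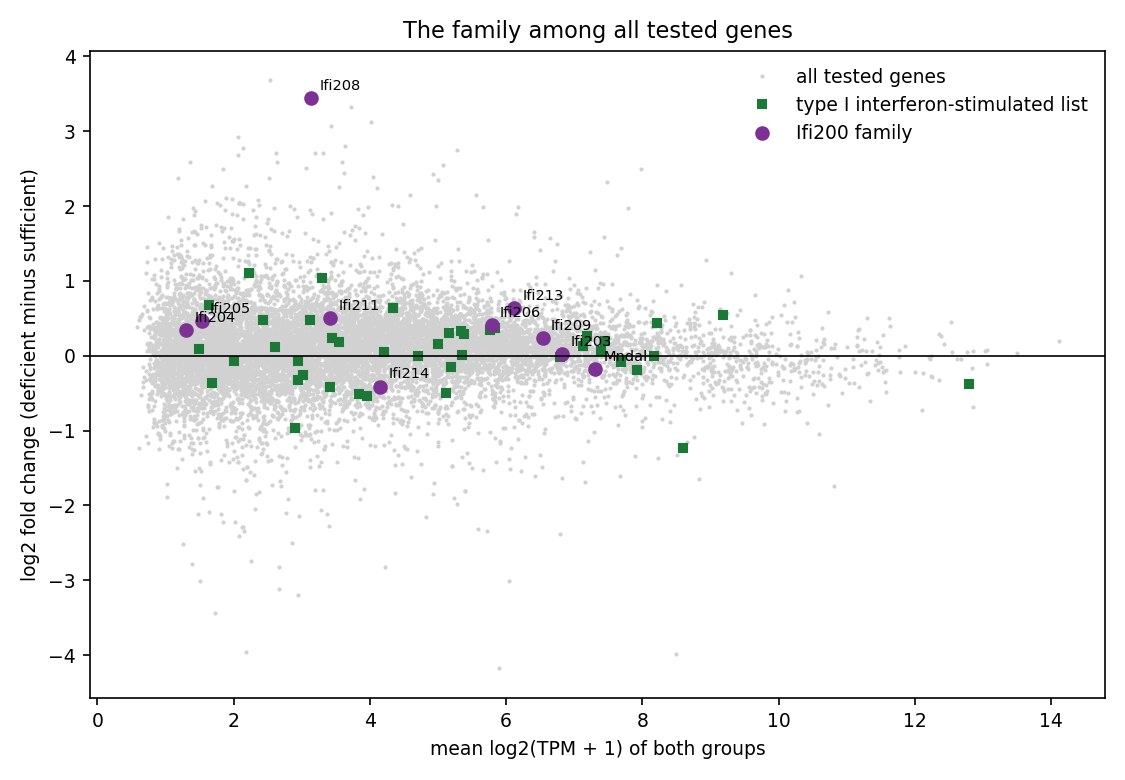
Deficient minus sufficient log2 fold change against mean log2(TPM + 1) for the 12155 tested genes in grey, with the 42 tested type I interferon-stimulated genes as green squares and the 10 members as purple circles. Ifi208 lies at 3.44, while the interferon-stimulated genes lie between -1.23 and 1.11.

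Of 17 tested genes of cytosolic DNA sensing and the inflammasome, limma called 0, and 1 was higher at an unadjusted p under 0.05, against 11.7% of all tested genes in either direction. That gene was Casp1, the inflammasome protease downstream of pyrin-domain adaptors. It had 6.29, 6.57 and 6.60 in deficient C1, D and dated on the log2(TPM + 1) scale, against 5.77, 5.66 and 5.76 in sufficient A1, B1 and dated, with no overlap. Its log2 fold change was 0.76 ± 0.16 (SE), with a limma adjusted p of 0.127, and 0.0439 in the fit blocked by date mark. Casp4, a caspase that binds bacterial lipopolysaccharide, had 0.42, and Ikbke, a kinase upstream of interferon induction, had 0.41, both without overlap between the groups. These 3 of 17 were higher without overlap, as were 10.9% of all tested genes. Il18, a cytokine matured by Casp1, had 1.14 with overlap, at 0.33 for undated and 2.76 for dated libraries. Their limma adjusted p were 0.435, 0.461 and 0.519. The median of this list was 0.14.

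The tested genes whose profile over the 6 libraries was nearest to that of Ifi208 were sought by the root mean square difference of values centred on their mean. The values were not scaled, so this distance depends in large part on how far the fold change of a gene is from that of Ifi208. It is not separate from the fold changes given above. The 5 nearest were the antisense gene Gm13610 on chromosome 2 (0.439), Itga7, an integrin chain on chromosome 10 (0.476), the receptor segments Trbv14 on chromosome 6 (0.533) and Trav13d-4 on chromosome 14 (0.55), and Zcchc18 on the X chromosome (0.743). None of them lies on chromosome 1. Itga7 had 4.51, 4.28 and 4.15 in deficient C1, D and dated on the log2(TPM + 1) scale, against 1.52, 2.01 and 1.90 in sufficient A1, B1 and dated. The nearest other member was Ifi213, at 1.46 and rank 1118 of the tested genes. Ifi214 was the farthest, at 1.97.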

How the data were processed

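6 libraries of sorted tumour Treg cells were compared, 3 Tim-3 deficient and 3 Tim-3 sufficient. The submitters' processing notes list STAR, RSEM and limma, with no version, and the builds GRCm38 and mm10. The authors deposited log2 values per gene; undoing log2(TPM + 1) gave libraries summing to between 999999.4 and 1000000.5 TPM. Library sizes in reads are unknown, so no counting interval was computed. Column names showed the group of a library but not its replicate number, no source says whether counting used strand, and genes that share sequence are reported as uncertain. All 55450 identifiers matched GENCODE mouse release 21 on GRCm38, and 27 symbols that differed were replaced by the annotated ones.

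The 10 members and all gene lists were chosen with earlier results of these data known. Groups were compared with limma 3.58.1 (lmFit, eBayes with a mean-variance trend, no covariate, two-sided) in R 4.3.3 on genes with a log2 value of at least 1 in at least 3 libraries. The pseudocount was 1 TPM. Tested on simulated data, the fit returned the set fold changes on average and called large changes more often than small ones. From each list, genes past the threshold and the 4 of smallest p were named; other named genes are Havcr2, members, other PYHIN genes, neighbours within 1 Mb or the 5 nearest profiles. Single markers of other cell types outside this rule (Ms4a1, Pax5, Zbtb46, Flt3, Clec9a, Siglech, Cd209a, Ccr9) and Xist were chosen after their values were seen. The list of other PYHIN genes had 4 of 10 symbols in the table, Aim2, Ifi202b, Ifi203-ps and Ifi207. Markers of Treg cells, macrophages, neutrophils, dendritic cells, B cells, CD8 T and NK cells, and tumour and stroma were summed in TPM. Alternatives covered the filter, the pseudocount, normalization, the variance model, the date mark as a block and leaving out libraries. Promoter sequences came from RefSeq (GRCm38.p6), where 9 of the 10 members matched, and transcripts from GENCODE. Figures were drawn with matplotlib 3.10.9 in Python 3.11.15 with pandas 2.3.3.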

Additional observations from a re-analysis of the deposited data

How the results depend on the processing

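Ifi208 kept a positive log2 fold change under every alternative tried, between 3.33 with quantile normalization and 3.99 with a pseudocount of 0.1 TPM. It stayed past the threshold in all but 3 fits: without deficient D (3.42), without sufficient B1 (3.47), and without deficient C1 and sufficient B1 together (3.44, an alternative chosen after the data were seen). In those 3 fits 0 members and 0 genes in all were called. Over the leave-one-out fits the log2 fold change of Ifi208 lay between 3.35 and 3.50, the number of members called between 0 and 1, and the number of genes called between 0 and 121. The 25 genes called in all became 1 with no filter on low values (Ifi208), 38 with quantile normalization, 4 without a mean-variance trend, 240 when blocked by date mark and 215 without both dated libraries. None of the other 9 members was called under any alternative, and of these 6 kept their sign throughout. Ifi203, near 0, turned to -0.10 with quantile normalization and -0.088 without both dated libraries, and lay between -0.11 and 0.18 over the leave-one-out fits. Without deficient C1, Ifi204 and Ifi205 turned to -0.49 and -0.34, against highest leave-one-out values of 0.92 and 1.22, and without deficient C1 and sufficient B1 they were -0.69 and -0.090. The cause of these turns was not tested. Quantile normalization moved the median log2 fold change of all genes to 0.0027 from 0.094. With log2 values of at least 2 required, 8 members were tested. No paired analysis was possible because the columns carry no replicate number, so the fit by replicate number was not run. Depth is unknown, so low values such as those of Ifi204 and Ifi205 have no counting error.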

Other observations

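Markers of other cells that a sort can carry over were also summed. Neutrophil markers summed to 2.48 TPM in deficient C1 and to 0.88 TPM or less in the other 5 libraries. CD8 T and NK markers summed to 100.2, 83.9 and 25.8 TPM in deficient C1, D and dated, against 62.7, 44.1 and 15.7 TPM in sufficient A1, B1 and dated. Tumour and stroma markers summed to 45.6, 53.6 and 41.7 TPM in deficient libraries, against 38.9, 48.8 and 29.3 TPM in sufficient ones.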
